A study of Mus musculus with 18 samples.

Results

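The translation initiation factors described here are the 52 mouse genes whose symbols begin with Eif1 to Eif6 and whose mean reached at least 1 CPM (counts scaled to equal library size) over the 18 liver libraries. They were chosen by symbol and level, without pseudogenes and without Eif2s3y, from 34937 genes in the count files, of which 56 fitted the symbol pattern. By family there are 14 eIF2 genes, 14 eIF3 genes, 15 eIF4 genes and 9 others. Of the genes left out on level, Eif5a2 had a mean of 0.748 CPM, while the lowest member, Eif4e3, had 10.4 CPM. The mice carried MycER, a fusion of the transcription factor MYC with part of the estrogen receptor, which stays inactive until tamoxifen is given. All groups had received carbon tetrachloride, a toxin that kills hepatocytes around the central vein, and each group held 3 mice with 1 library per mouse. Group 12ON was sampled 12 days after injury with MycER active. Groups 1OFF, 2OFF, 3OFF and 7OFF are labelled 1, 2, 3 and 7 days after injury without MycER activation, and group 12 is labelled 12 days after injury without it. The protocol given with every library, those of group 12 included, names 0.5 uL of carbon tetrachloride per g and 1 mg of tamoxifen. The labels state neither whether MycER had been active earlier in the OFF mice, nor the promoter that drives it, the sex and age of the mice, or whether group 12 in fact received tamoxifen. An OFF group therefore differed from groups 12ON and 12 in the labelled day as well. The group names leave it unclear whether the day of an OFF group counts from injury, as labelled, or from the end of MycER activation, so the OFF groups are given by their labels alone.

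Initiation starts when eIF2, loaded with GTP and the initiator tRNA, joins the small ribosomal subunit together with eIF1, eIF1A, eIF3 and eIF5. The eIF4F complex, made of the cap-binding protein eIF4E, the scaffold eIF4G and the RNA helicase eIF4A, brings that subunit to the capped end of an mRNA, and eIF5B joins the large subunit at the start codon. Both ends are regulated: 4E-BP proteins sequester eIF4E when mTORC1 signalling is low, and stress kinases phosphorylate eIF2 and thereby block its recycling by eIF2B. Genes of this machinery, Eif4e among them, are known as targets of MYC in other systems.

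The libraries held 23.1 to 75.3 M gene counts, and all 52 members passed the filter on low counts, so that 52 of 17789 tested genes are members. MycER is switched on as a protein, so the level of Myc does not check the labels, and whether its counts include the transgene is not given in the sources used here. Myc had 6.96, 5.14 and 6.68 CPM in 12ON and 6.23, 6.35 and 9.54 CPM in group 12, at -0.24 ± 0.25 on the log2 scale (SE), adjusted p = 0.455 (edgeR quasi-likelihood test, Benjamini-Hochberg). Values per mouse below are CPM after TMM scaling, in the order of the replicate numbers, and calls rest on that edgeR test at an adjusted p of 0.05 over all tested genes. The hepatocyte markers were present in every library. Their summed level was 28880 to 35840 CPM in 12ON and 99280 to 109500 CPM in group 12. Among the OFF livers it ran between 38140 and 43480 CPM for 1OFF, between 37920 and 41410 for 2OFF, between 51260 and 78570 for 3OFF and between 62830 and 83610 for 7OFF.

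The first comparison asked how livers with active MycER differed from livers of the same day without it. Most initiation factors were higher in 12ON. Of the 52 members, 29 were higher and 3 lower, while 24% of all tested genes were called higher and 22.6% lower. Among genes with a mean of 10 CPM or more, which is the range of the members, 26.4% were called higher and 29.6% lower. The median log2 fold change was 0.33 over the members and -0.0047 over all tested genes. By family, 5 of 14 eIF2 genes, 13 of 14 eIF3 genes, 8 of 15 eIF4 genes and 3 of the 9 others were called higher. The 3 members called lower were Eif1, Eif4a2 and Eif4ebp2. Together the members took 0.716% to 0.832% of all counts in 12ON, against 0.419% to 0.468% in group 12, and their levels after TMM scaling summed to 6357 ± 296 CPM in 12ON livers, against 5230 ± 308 CPM for group 12 (SD, n = 3 each).

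Scaling to total counts alone, without TMM, moved the median of all genes to 0.49, and with it the members to 45 called higher and 0 lower. The share of all genes called under that scaling is not given here, so whether the members moved more than other genes was not tested. Under that scaling the values of Eif1, Eif4a2 and Eif4ebp2 became 0.04, 0.11 and 0.21, so directions given for these members are relative to the other genes. A call of 24 of the 32 members held in every fit that left out 1 library of 12ON or of group 12, and the others are named where they are described. In these bulk samples fewer cells of a type and less RNA per cell cannot be told apart. Beside the members, 6 of 6 cholangiocyte markers were higher in 12ON, with a summed level of 184 to 198 CPM in 12ON and 32.1 to 93.4 CPM in group 12. All 4 cycling-cell markers were higher, at 163 to 276 CPM in 12ON and 22.0 to 26.6 CPM in group 12, as were 3 of 5 stellate cell markers, at 176 to 198 CPM in 12ON and 72.6 to 90.9 CPM in group 12. Of 7 hepatocyte markers 6 were lower and 1 higher, and 5 of 5 sinusoidal endothelial, 4 of 5 macrophage and 2 of 5 lymphocyte markers were lower. None of 3 neutrophil markers was called. No marker was at 0 in a whole group. The mitochondrial share of counts was 6.42% to 7.11% in 12ON and 4.80% to 5.25% in group 12. With that share as a term in the fit 21 members were called higher and 1 lower, and the percentage of all genes called in that fit is not given here. The groups did not overlap in this share, so a call lost with the term does not tell the share from the group. What these shifts contribute to the members' differences was not tested.

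**Figure D1:**
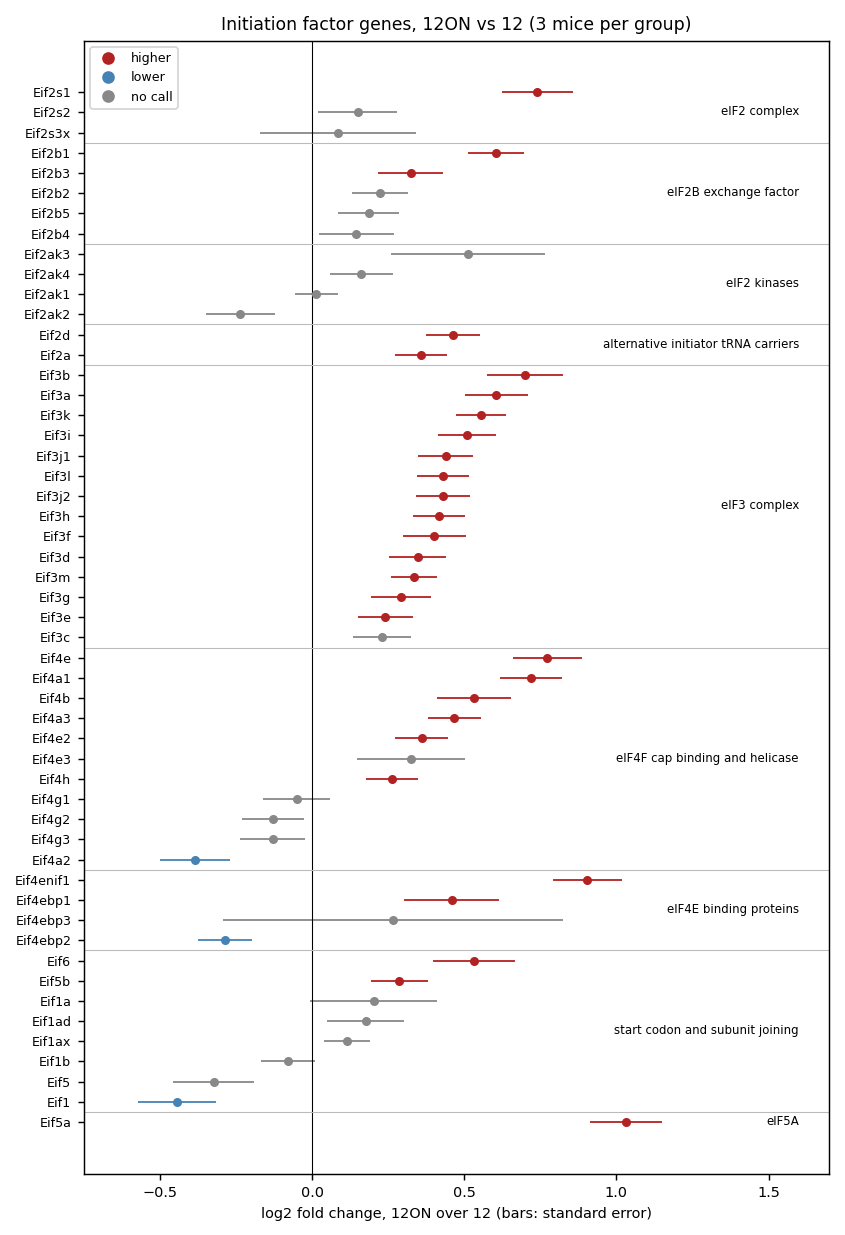
Log2 fold change of each of the 52 members in 12ON against group 12 (horizontal axis), grouped by complex, with bars for 1 standard error from the edgeR fit over 18 libraries and 3 mice per group. Red points were called higher, blue points lower, and gray points did not pass an adjusted p of 0.05. 29 members were called higher and 3 lower, with Eif5a highest at 1.03 and Eif1 lowest at -0.44; under scaling to total counts the 3 lower members turn positive.

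MYC with its partner MAX binds the E-box CACGTG, so promoters of the members were searched for these 6 bases, a palindrome that reads the same on both strands. The windows are RefSeq promoters in GRCm38.p6, from 250 bases before to 50 bases after each transcript start, and 41 of the 52 members had an entry. In 9 of these 41 members, 22.0%, a window held the E-box, against 8.09% of the 27025 genes with a promoter entry. The second share covers genes at any level in these livers, while the members were chosen on level. The 2 shares are therefore not of like genes, and whether the members differ from genes at their own level was not tested. Of the 9 members, 7 were called higher in 12ON and their median log2 fold change was 0.55. Of the 32 matched members without it, 15 were called higher and the median was 0.26. Whether members with and without the E-box differed was not tested. The shares of all genes with and without it that were called higher are not given here. Below are 60 bases of each of these promoters that lie before the start, in the direction of transcription, with the E-box in capitals. They are printed for members called higher and members not called, and the flanks were not compared between these. E-boxes after the start are not printed: that of Eif3a lies at position 22 and a second copy of Eif4g1 at position 15. The first 6 genes were called higher in 12ON, Eif4g1 and Eif1b were not; the number in brackets is the position of the first E-box base relative to the start.
Eif5a (-74), chr11:69921428-69921487, minus strand: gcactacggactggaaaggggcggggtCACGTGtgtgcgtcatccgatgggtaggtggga
Eif5a, second start (-178), chr11:69920776-69920835, minus strand: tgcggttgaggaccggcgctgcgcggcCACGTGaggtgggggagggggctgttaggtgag
Eif4e (-64), chr3:138527177-138527236, plus strand: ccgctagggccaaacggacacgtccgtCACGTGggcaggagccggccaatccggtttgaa
Eif4e (-228), chr3:138527018-138527077, plus strand: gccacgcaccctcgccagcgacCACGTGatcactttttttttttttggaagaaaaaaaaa
Eif4a1 (-189), chr11:69672580-69672639, minus strand: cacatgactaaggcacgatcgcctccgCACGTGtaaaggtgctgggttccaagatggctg
Eif3k (-44), chr7:28981900-28981959, minus strand: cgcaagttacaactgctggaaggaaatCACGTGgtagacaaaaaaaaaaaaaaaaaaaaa
Eif3f (-68), chr7:108934320-108934379, plus strand: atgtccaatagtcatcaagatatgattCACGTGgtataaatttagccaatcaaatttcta
Eif4h (-96), chr5:134639473-134639532, minus strand: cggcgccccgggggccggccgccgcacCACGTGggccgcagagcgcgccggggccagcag
Eif4g1 (-54), chr16:20672646-20672705, plus strand: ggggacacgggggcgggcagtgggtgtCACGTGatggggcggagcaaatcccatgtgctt
Eif1b (-24), chr9:120492546-120492605, plus strand: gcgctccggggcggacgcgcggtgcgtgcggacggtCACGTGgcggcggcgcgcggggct
Both Eif4e, which was called higher, and Eif4g1, which was not called, carried 2 copies in 1 window. A match is a description of the letters, not evidence of binding in these livers.

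Eif5a (ENSMUSG00000078812, chromosome 11, 69916714 to 69921958 in GRCm38) encodes eIF5A, which is activated by the hypusine modification made from spermidine and eases peptide bond formation on the ribosome. It had 601, 650 and 566 CPM in the 12ON livers, against 271, 327 and 292 CPM in group 12. Every 12ON liver lay far above every liver of group 12. The difference was 2.04-fold, the largest of all members, or 1.03 ± 0.12 on the log2 scale, with an adjusted p = 8.01e-06 (edgeR). Its paralogue Eif5a2, below the level set for members, had 0.924, 0.726 and 0.83 CPM in 12ON and 0.778, 0.481 and 0.56 CPM in group 12, which overlapped. Eif5a2 had an adjusted p = 0.167 (edgeR).

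Of the 11 genes of cap binding and the eIF4 helicase, 6 were called higher and 1 lower. Eif4e (ENSMUSG00000028156, chromosome 3, 138526179 to 138559696), which encodes the cap-binding protein, had 78.7, 97.8 and 90.8 CPM in 12ON, against 47.2, 58.6 and 50.6 CPM in group 12. The groups did not overlap, at 0.77 ± 0.11 on the log2 scale, with an adjusted p = 6.33e-05 (edgeR). Eif4a1 (ENSMUSG00000059796, chromosome 11, 69666936 to 69672423), which encodes the helicase of eIF4F, had 508, 547 and 540 CPM in 12ON, against 295, 350 and 322 CPM in group 12. It was 1.65-fold higher, with an adjusted p = 5.01e-05, and again without overlap. Eif4a3, which encodes the helicase of the exon junction complex, had 58.3, 68.8 and 63.6 CPM in 12ON and 43.6, 47.6 and 46.7 CPM in group 12, a log2 difference of 0.47 ± 0.09. Eif4b, whose product stimulates eIF4A, was 1.45-fold higher (log2 0.53 ± 0.12), and Eif4e2, the cap-binding repressor 4EHP, 1.28-fold. The call of Eif4b was lost with a term for the mitochondrial share (adjusted p = 0.071). Eif4h, a further cofactor of eIF4A, had a log2 difference of 0.26 ± 0.09 that no longer passed with a mitochondrial term, in a fit of the 2 groups alone, or without group 12 replicate 1, 12ON replicate 2 or 12ON replicate 3, with an adjusted p of up to 0.0994 (edgeR).

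The eIF4G genes did not show the difference of Eif4e and Eif4a1. Eif4g1 (ENSMUSG00000045983, chromosome 16, 20668313 to 20692884) had 437, 469 and 486 CPM in 12ON, against 448, 526 and 468 CPM in group 12, which overlapped. Its log2 fold change was -0.05 ± 0.11 with an adjusted p = 0.733 (edgeR), and those of Eif4g2 and Eif4g3 were both -0.13. Under scaling to total counts these 3 values became 0.45, 0.37 and 0.36. Eif4a2 (ENSMUSG00000022884, chromosome 16, 23107444 to 23114136), the second eIF4A helicase, went the other way from Eif4a1, with 111, 120 and 128 CPM in 12ON and 173, 138 and 157 CPM in group 12. It was lower without overlap, at -0.39 ± 0.12 on the log2 scale, with an adjusted p = 0.0127. That call was lost without group 12 replicate 1 or 12ON replicate 1, with an adjusted p of up to 0.0653, and under total counts the value was 0.11. Per kilobase of exon, Eif4a1 stood 5.65, 5.63 and 5.18 times above Eif4a2 in the 12ON livers, against 2.10, 3.12 and 2.53 times in group 12. This ratio within a library does not depend on the scaling of the library, and the groups did not overlap.

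Genes for proteins that bind eIF4E moved in both directions. Eif4enif1 (ENSMUSG00000020454, chromosome 11, 3202392 to 3244588), which encodes the 4E-T protein that carries eIF4E into the nucleus and to P-bodies, had 43.6, 47.6 and 44 CPM in 12ON, against 21.9, 27.5 and 22.8 CPM in group 12. It was 1.87-fold higher without overlap (log2 0.90 ± 0.11, adjusted p = 1.79e-05, edgeR), and it and Eif5a were the 2 members that also passed a test against a 1.5-fold change. Eif4ebp1, the 4E-BP best known as an mTORC1 substrate, had 54.5, 55.7 and 39.4 CPM in 12ON and 33.5, 42.7 and 32.6 CPM in group 12. It was called higher at 0.46 ± 0.16 although the groups overlapped, and the call was lost without group 12 replicate 1, group 12 replicate 3, 12ON replicate 1 or 12ON replicate 2 (adjusted p of up to 0.101). Eif4ebp2 had 75.2, 77.1 and 64.9 CPM in 12ON, against 90.8, 87 and 87.2 CPM in group 12. It was lower at -0.29 ± 0.09 without overlap, a call lost without 12ON replicate 3 (adjusted p = 0.076), lost with a mitochondrial term, and turned to 0.21 under total counts.

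Per kilobase of exon, the ratio of Eif4ebp1 to Eif4e was 3.46 ± 0.79 in 12ON and 4.25 ± 0.27 in group 12 (SD, n = 3 each), a log2 difference of -0.32. An exact permutation test gave a two-sided p = 0.2, where 3 against 3 livers cannot give less than 0.1. The ratio of Eif4ebp2 to Eif4e was 3.22, 2.65 and 2.40 in 12ON, against 6.48, 4.99 and 5.80 in group 12, without overlap and with no test. Eif4ebp3 was at 0.27 ± 0.56 on the log2 scale, with an adjusted p = 0.724 (edgeR). Its value is uncertain, since 501 of its 744 exonic bases also belong to Ankhd1 and reads over shared bases were counted for both genes.

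The eIF3 complex, the largest of the initiation factors and a scaffold on the small ribosomal subunit, moved most uniformly. All 14 genes had a positive log2 fold change, between 0.23 and 0.70, and 13 were called higher. Eif3k (ENSMUSG00000053565, chromosome 7, 28971373 to 28981814) had 54.7, 60 and 53 CPM in 12ON, against 36.4, 41.9 and 35.9 CPM in group 12, 1.47-fold higher (adjusted p = 7.49e-05, edgeR). Eif3a (ENSMUSG00000024991, chromosome 19, 60761116 to 60790693), the core subunit on which the complex assembles, had 271, 318 and 272 CPM in 12ON, against 191, 196 and 179 CPM in group 12, 1.52-fold higher (adjusted p = 0.000225). Eif3b (ENSMUSG00000056076, chromosome 5, 140419328 to 140443360), which binds the other core subunits, had 204, 230 and 206 CPM in 12ON, against 112, 155 and 126 CPM in group 12, 1.62-fold higher (adjusted p = 0.000311). None of these 3 overlapped between the groups. Eif3c, also a core subunit, had 193, 201 and 170 CPM in 12ON and 151, 177 and 153 CPM in group 12, which overlapped, and missed the threshold at 0.23 ± 0.10 (adjusted p = 0.0604). Without group 12 replicate 2 or 12ON replicate 3 it passed, with an adjusted p of down to 0.0243.

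The calls of Eif3e and Eif3g were the least firm of the complex. Eif3e, at 0.24 ± 0.09, no longer passed with a mitochondrial term or no filter on low counts, or without any 1 of the group 12 libraries, 12ON replicate 2 or 12ON replicate 3 (adjusted p of up to 0.132), and Eif3g, at 0.29 ± 0.10, in a fit of the 2 groups alone or without group 12 replicate 1, group 12 replicate 3 or 12ON replicate 2 (adjusted p of up to 0.108). Eif3j1 and Eif3j2 are near-identical copies, so reads that fit both were not counted and their split is uncertain; both were called higher, at 0.44 and 0.43. Per kilobase of exon the subunits differed about as much from each other in both groups. Eif3h had the highest mean level, 104 CPM per kb in 12ON and 77.9 in group 12, and Eif3j1 the lowest, 9.72 in 12ON and 7.17 in group 12, a ratio of 10.7 in 12ON and 10.9 in group 12. The level of Eif3j1 lacks the reads that also fit Eif3j2, so the size of this ratio is uncertain. The summed level of the 14 genes was 1626 ± 101 CPM in 12ON livers, against 1195 ± 100 CPM for group 12 (SD, n = 3 each).

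**Figure D2:**
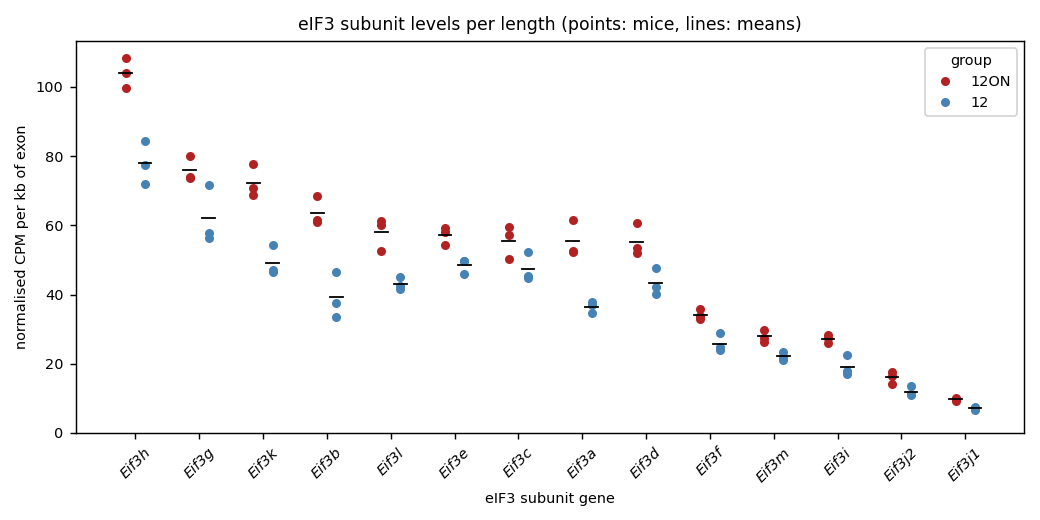
Level of each of the 14 eIF3 subunit genes in normalised CPM per kilobase of exon (vertical axis, from 0), in 12ON (red) and in group 12 (blue), with 1 point per liver and the mean as a line. Every subunit had a higher mean in 12ON, and the span from Eif3j1 to Eif3h was 10.7-fold in 12ON and 10.9-fold in group 12. Reads that fit both Eif3j1 and Eif3j2 were not counted, so the size of the span is uncertain.

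Of the 3 subunits of eIF2, Eif2s1 alone was called higher. Eif2s1 (ENSMUSG00000021116, chromosome 12, 78861819 to 78887010) encodes the alpha subunit that the stress kinases phosphorylate, and had 72.9, 85.3 and 73.4 CPM in 12ON, against 39.5, 52.1 and 47.1 CPM in group 12. It was 1.67-fold higher without overlap (log2 0.74 ± 0.12, adjusted p = 0.000116, edgeR). Eif2s2, the beta subunit, was at 0.15 ± 0.13 with an adjusted p = 0.371, and Eif2s3x, the gamma subunit on the X chromosome, at 0.08 ± 0.26. The 5 libraries with Xist above 100 CPM, 1 each in groups 12ON, 2OFF, 3OFF, 7OFF and 12, had 147 to 188 CPM of Eif2s3x, against 96.1 to 113 CPM in the other 13. Eif1ax, the other X-linked member, had 40.1 to 51.3 CPM in the libraries with high Xist and 34.4 to 49.1 CPM in the others, which overlapped.

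Among the 5 subunits of eIF2B, the exchange factor that reloads eIF2 with GTP, Eif2b1 and Eif2b3 were called higher. Eif2b1 had 31.8, 33.9 and 32.6 CPM in 12ON, against 20, 24 and 20.7 CPM in group 12, 1.52-fold higher without overlap (adjusted p = 8.68e-05, edgeR). Eif2b3, one of the catalytic subunits, had 14.5, 17.1 and 17.4 CPM in 12ON and 14.1, 13 and 12.1 CPM in group 12. Its call at 0.32 ± 0.11 was lost with a mitochondrial term and without group 12 replicate 2, group 12 replicate 3, 12ON replicate 2 or 12ON replicate 3 (adjusted p of up to 0.0838). Eif2b2, Eif2b5 and Eif2b4 were at 0.22, 0.19 and 0.15 and were not called. None of the 4 eIF2 kinase genes passed. Eif2ak3, which encodes the kinase PERK of the endoplasmic reticulum, had the largest difference, at 0.51 ± 0.25 on the log2 scale. It had 33, 33.4 and 30.7 CPM in 12ON, against 19.5, 31.3 and 17.4 CPM in group 12, which overlapped. Its adjusted p = 0.109 fell to 0.0194 without group 12 replicate 2 (edgeR). Eif2ak2, the double-stranded RNA sensor PKR, had the smallest adjusted p of the 4 kinase genes, at -0.24 ± 0.11 without overlap (adjusted p = 0.0987, edgeR). Eif2ak4, the amino acid sensor GCN2, was at 0.16 ± 0.10, also without overlap, and Eif2ak1, the heme-regulated kinase, at 0.01 ± 0.07. Eif2a and Eif2d encode factors that can deliver the initiator tRNA without eIF2. Eif2d had 45.9, 47.2 and 43.8 CPM in 12ON and 30.6, 35.4 and 33.4 CPM in group 12, and Eif2a had 54.4, 54.3 and 53.3 CPM in 12ON and 45.6, 41.2 and 39.8 CPM in group 12. Both were called higher without overlap, at 0.46 ± 0.09 and 0.36 ± 0.09, and both calls were lost with a mitochondrial term (adjusted p = 0.0537 for Eif2d and 0.0809 for Eif2a, edgeR).

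The factors of start codon choice and subunit joining differed from one another. Eif6 (ENSMUSG00000027613, chromosome 2, 155819832 to 155826925), whose product keeps the large subunit from joining too early and acts in its assembly, had 111, 121 and 113 CPM in 12ON, against 76, 91.3 and 71.5 CPM in group 12. It was 1.45-fold higher without overlap (adjusted p = 0.00437, edgeR). Eif5b, the subunit joining factor, had 105, 121 and 115 CPM in 12ON and 93.5, 90.8 and 95.2 CPM in group 12. These did not overlap, at 0.29 ± 0.09, but the call was lost with a mitochondrial term and without group 12 replicate 2, 12ON replicate 2 or 12ON replicate 3 (adjusted p of up to 0.0853). Eif1 (ENSMUSG00000035530, chromosome 11, 100319885 to 100322096), which keeps the scanning ribosome from poor start codons, had 190, 172 and 179 CPM in 12ON, against 248, 227 and 261 CPM in group 12. It was lower without overlap at -0.44 ± 0.13 (adjusted p = 0.00977), with a value of 0.04 under total counts and a call lost with a mitochondrial term (adjusted p = 0.0795). Eif5, which triggers GTP hydrolysis by eIF2 and opposes Eif1 in start codon choice, had 192, 206 and 199 CPM in 12ON, against 234, 293 and 220 CPM in group 12. All 3 of its 12ON values lay below group 12, but it missed the threshold at -0.32 ± 0.13 (adjusted p = 0.0591). Eif1a, Eif1ad, Eif1ax and Eif1b were between -0.08 and 0.20 and were not called.

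The design text set each OFF group against 12ON. Near day 1 and day 2 few differences could be shown, and by 3OFF most of the genes high in 12ON were lower. In 1OFF against 12ON no member was called, with 0.00562% of all genes called higher and 0% lower. 11 members had an unadjusted p under 0.05 (edgeR), as did 2568 of the 17789 tested genes. DESeq2 called 2 members lower, Eif2b1 and Eif4a3. In 2OFF against 12ON no member and 0% of all genes were called in either direction. 15 members had an unadjusted p under 0.05 (edgeR), as did 3039 of the 17789 tested genes. DESeq2 called 6 members lower. Without 2OFF replicate 2, edgeR called 8 members lower, among them Eif5a at -0.52, Eif4e at -0.50 and Eif2s1 at -0.50. The shares of all genes called by DESeq2 and in that fit are not given here.

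In 3OFF against 12ON 25 members were lower and 3 higher, with 17% of all genes called lower and 15.3% higher. In 7OFF against 12ON 24 were lower and 5 higher, with 22.7% of all genes lower and 21.4% higher. The members' median log2 fold change was -0.28 in 3OFF and -0.25 in 7OFF, against 0.01 over all genes in both. By family, 10 of 14 eIF3 genes were lower in 3OFF and 11 of 14 in 7OFF, while all 5 eIF2B genes were lower in 3OFF and 2 of 5 in 7OFF. These comparisons share the 12ON libraries with each other and with the comparison above. Of the calls, 19 of 28 held in 3OFF and 21 of 29 in 7OFF in every fit that left out 1 library. Beside the members, the summed level of the cholangiocyte markers was 69.5 to 82.6 CPM in 3OFF and 49.6 to 78.1 CPM in 7OFF, against 184 to 198 CPM in 12ON, and that of the cycling-cell markers 22.9 to 39.6 CPM in 3OFF and 9.12 to 19.8 CPM in 7OFF, against 163 to 276 CPM in 12ON; their part in the result was not tested.

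Eif5a had 534, 488 and 509 CPM in 1OFF, 431, 512 and 425 in 2OFF, 341, 388 and 303 in 3OFF and 307, 280 and 274 in 7OFF, against 601, 650 and 566 CPM in 12ON. The OFF values lay below 12ON in all 12 OFF livers, and those of 7OFF lay at the level of group 12. The log2 fold change against 12ON was -0.82 ± 0.12 in 3OFF (adjusted p = 0.00022) and -1.08 ± 0.12 in 7OFF (adjusted p = 8.52e-06, edgeR). Eif4e had 72, 70.8 and 71.2 CPM in 1OFF, 64.7, 78 and 62.2 in 2OFF, 49.1, 53.5 and 42.4 in 3OFF and 51.1, 51.9 and 48.5 in 7OFF, against 78.7, 97.8 and 90.8 CPM in 12ON. It was lower at -0.88 ± 0.11 in 3OFF and -0.82 ± 0.11 in 7OFF, with no overlap between either group and 12ON. Eif2s1, Eif3b and Eif4enif1 were lower by a like amount in 3OFF, at -0.73, -0.69 and -0.68, and in 7OFF, at -0.76, -0.65 and -0.71. Eif4a1 was at -0.48 ± 0.10 in 3OFF and -0.59 ± 0.10 in 7OFF.

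The members called higher in 3OFF were Eif4a2, Eif1 and Eif4ebp2, the 3 that were called lower in 12ON against group 12. Eif4a2 had 125, 146 and 145 CPM in 1OFF, 132, 120 and 149 in 2OFF, 195, 173 and 187 in 3OFF and 247, 203 and 242 in 7OFF, against 111, 120 and 128 CPM in 12ON. From 3OFF on it lay above every 12ON liver, at 0.63 ± 0.12 in 3OFF (adjusted p = 0.000991) and 0.95 ± 0.12 in 7OFF (adjusted p = 1.9e-05, edgeR). Eif1 was at 0.52 in 3OFF and 0.51 in 7OFF, and Eif4ebp2 at 0.35 in both, where the call of Eif4ebp2 in 3OFF was lost without 12ON replicate 3 (adjusted p = 0.0502). Eif5 and Eif2ak1 were called higher in 7OFF only, at 0.50 and 0.21, and whether these differed between 3OFF and 7OFF was not shown, since neither was called between those groups. The call of Eif5 was lost with a mitochondrial term (adjusted p = 0.0715, edgeR). That of Eif2ak1 was lost with that term, with no filter, in a fit of the 2 groups alone, and without 12ON replicate 2, 12ON replicate 3 or 7OFF replicate 1 (adjusted p of up to 0.132). Total counts moved the median of all genes to -0.31 in 3OFF and -0.41 in 7OFF. Under it no member was called higher in 3OFF and 1, Eif4a2, in 7OFF, and in 7OFF Eif4ebp2 and Eif2ak1 turned to -0.08 and -0.21. The shares of all genes called under total counts are not given here. The ratio of Eif4a1 to Eif4a2 per kilobase was 4.28 ± 0.54 in 1OFF, 4.29 ± 0.71 in 2OFF, 2.56 ± 0.34 in 3OFF and 1.91 ± 0.35 in 7OFF, against 5.49 ± 0.27 in 12ON (SD, n = 3 each).

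**Figure D3:**
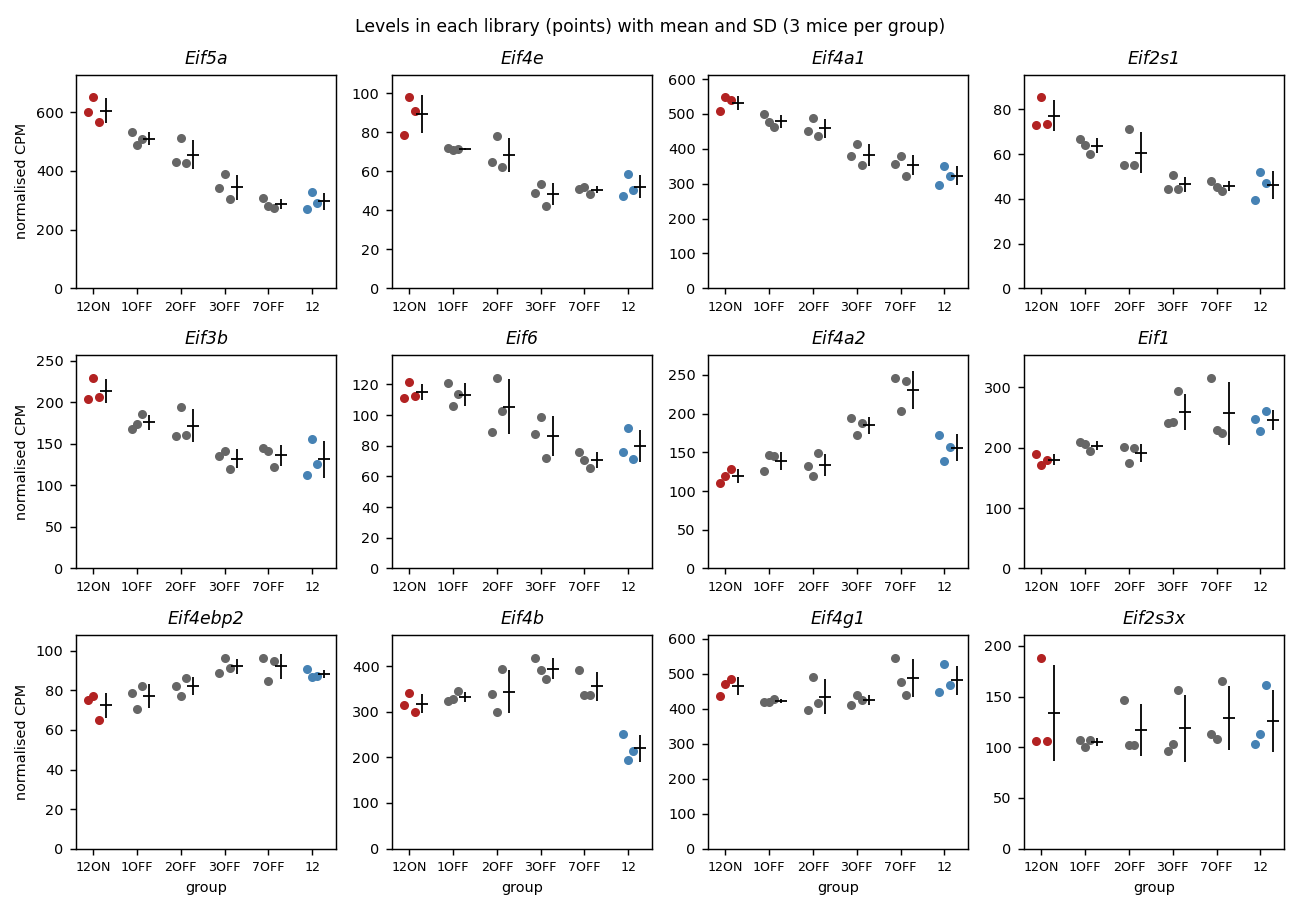
Level in CPM after TMM scaling (vertical axes, from 0) of 12 members in every liver of groups 12ON, 1OFF, 2OFF, 3OFF, 7OFF and 12, with 1 point per liver and a cross bar for the mean and SD. Eif5a and Eif4e are highest in 12ON and near group 12 by 7OFF, Eif4a2 is highest in 7OFF at 203 to 247 CPM, and Eif4b stays above group 12 in every other group.

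Against group 12, which was not among the comparisons of the design text, the number of members called fell with the labelled day. In 1OFF 22 members were higher and 0 lower, where 17.1% of all genes were called higher and 16.3% lower. In 2OFF 19 were higher and 2 lower, where 18.1% of all genes were higher and 17% lower. In 3OFF 6 were higher and 2 lower, with 9.47% of all genes higher and 7.95% lower, and in 7OFF 2 were higher and 0 lower, with 2.47% and 3.31% of all genes. The members' median was 0.24, 0.18, 0.08 and 0.05 in the 4 groups. The mitochondrial share lay between 6.16% and 7.33% for 1OFF, between 6.69% and 7.00% for 2OFF, between 5.36% and 7.18% for 3OFF and between 5.54% and 6.19% for 7OFF, against 4.80% to 5.25% in group 12. With it as a term 10, 8, 1 and 1 members were called higher. Every OFF library lay above group 12 in this share, so a call lost with the term does not tell the share from the group. Without group 12 replicate 1, or without 2OFF replicate 2, 12 members were called higher in 2OFF, and without group 12 replicate 3, or without 3OFF replicate 1, 3 were called higher in 3OFF. In a fit of the 2 groups alone the count was 8 in 2OFF, 2 in 3OFF and 0 in 7OFF. The shares of all genes called in these other fits are not given here. Whether the members lost more calls than other genes was therefore not tested.

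Markers of cell types moved beside these counts. Cholangiocyte markers were called higher than in group 12 for 5 of 6 genes in 1OFF, 3 in 2OFF, 2 in 3OFF and 1 in 7OFF, and all 4 cycling-cell markers were higher in 1OFF and 2OFF and none in 3OFF or 7OFF. Of 7 hepatocyte markers 6 were lower in 1OFF and in 2OFF, 2 in 3OFF and 0 in 7OFF, with 1 higher in each. Of 5 sinusoidal endothelial markers 3, 3, 1 and 0 were lower in 1OFF, 2OFF, 3OFF and 7OFF, of 5 macrophage markers 4, 4, 0 and 4, and of 5 lymphocyte markers 2, 2, 0 and 1. Of 5 stellate cell markers 2 were higher in 1OFF, 3 in 2OFF and none later, and no neutrophil marker was called. The cholangiocyte markers summed to between 114 and 137 CPM for 1OFF and between 62.1 and 117 CPM for 2OFF, against 32.1 to 93.4 CPM for group 12, and the cycling-cell markers to between 52.3 and 119 CPM for 1OFF and between 39.0 and 171 CPM for 2OFF, against 22.0 to 26.6 CPM for group 12. Their part in the members' differences was not tested.

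In 1OFF Eif5a was at 0.78 ± 0.12 (adjusted p = 0.000175, edgeR), Eif4a1 at 0.57 ± 0.10 and Eif3h at 0.44 ± 0.09 above group 12. In 2OFF Eif5a was at 0.62 ± 0.12 and Eif4a1 at 0.51 ± 0.10. Eif4e was at 0.45 ± 0.11 in 1OFF and 0.39 ± 0.11 in 2OFF, where its call was lost in a fit of the 2 groups alone and without group 12 replicate 1 or 2OFF replicate 2 (adjusted p of up to 0.0928). None of these 4 genes was called in 3OFF or 7OFF against group 12, apart from Eif3h in 3OFF at 0.33, a call lost with a mitochondrial term, in a fit of the 2 groups alone and without group 12 replicate 3 or 3OFF replicate 1 (adjusted p of up to 0.0689). The 2 members lower in 2OFF were Eif1 and Eif2ak2, and in no fit without 1 library were both called. Eif1 was at -0.36 in 2OFF, and its call was lost without group 12 replicate 1 or 3 or any 1 of the 2OFF libraries (adjusted p of up to 0.119, edgeR). In 3OFF Eif1ax was lower at -0.27, a call lost without group 12 replicate 1, group 12 replicate 3 or 3OFF replicate 1 (adjusted p of up to 0.123). Eif2ak2 was lower in 2OFF and 3OFF, at -0.37 and -0.34, and the calls were lost with total counts, with a mitochondrial term, in a fit of the 2 groups alone and without group 12 replicate 1, group 12 replicate 2 or the first replicate of the OFF group, and in 3OFF also without group 12 replicate 3 or 3OFF replicate 3 (adjusted p of up to 0.0985 in 2OFF and 0.193 in 3OFF).

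Eif4b (ENSMUSG00000058655, chromosome 15, 102073773 to 102097172) was the member called higher than group 12 in each of the other 5 groups. It had 324, 328 and 345 CPM in 1OFF, 339, 300 and 394 in 2OFF, 419, 392 and 373 in 3OFF and 392, 337 and 337 in 7OFF, and 314, 340 and 298 CPM in 12ON, against 252, 194 and 214 CPM in group 12. Every liver of these 5 groups lay above the 3 livers of group 12. The log2 fold change against group 12 was 0.60, 0.65, 0.84 and 0.69 in 1OFF, 2OFF, 3OFF and 7OFF, each with an SE of 0.12, and the adjusted p was 0.00713 in 7OFF (edgeR). A fit of 7OFF and group 12 alone gave an adjusted p = 0.0898 for Eif4b there, and with a mitochondrial term its calls in 1OFF, 2OFF and 12ON were lost (adjusted p = 0.0733, 0.0575 and 0.071, edgeR). All 5 comparisons share the 3 livers of group 12. Eif4a2 was the other member higher in 7OFF, at 0.56 ± 0.12 (adjusted p = 0.0135), and its call was lost with that term, in the 2-group fit and without group 12 replicate 2 or 7OFF replicate 1 (adjusted p of up to 0.0556).

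Few members were called in the steps compared between OFF groups, which were 3OFF against 2OFF and 7OFF against 3OFF. In 3OFF against 2OFF, Eif4e (-0.50 ± 0.11), Eif4enif1 (-0.44 ± 0.11) and Eif5a (-0.41 ± 0.12) were lower and Eif4a2 (0.47 ± 0.12) higher, where 3.95% of all genes were called lower and 2.84% higher. Each of the 4 calls was lost in a fit of the 2 groups alone and without 2OFF replicate 2, 3OFF replicate 2 or 3OFF replicate 3, and those of Eif4enif1, Eif5a and Eif4a2 also without 2OFF replicate 1, and of Eif5a and Eif4a2 without 3OFF replicate 1, with an adjusted p of up to 0.222 for Eif5a. In 7OFF against 3OFF Eif1ax was called higher at 0.30 ± 0.08, and 3.02% of all genes higher and 5.04% lower. Its call was lost under total counts, with no filter, with a mitochondrial term, in the 2-group fit and without 3OFF replicate 1, 7OFF replicate 1 or 7OFF replicate 2 (adjusted p of up to 0.112).

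**Figure D4:**
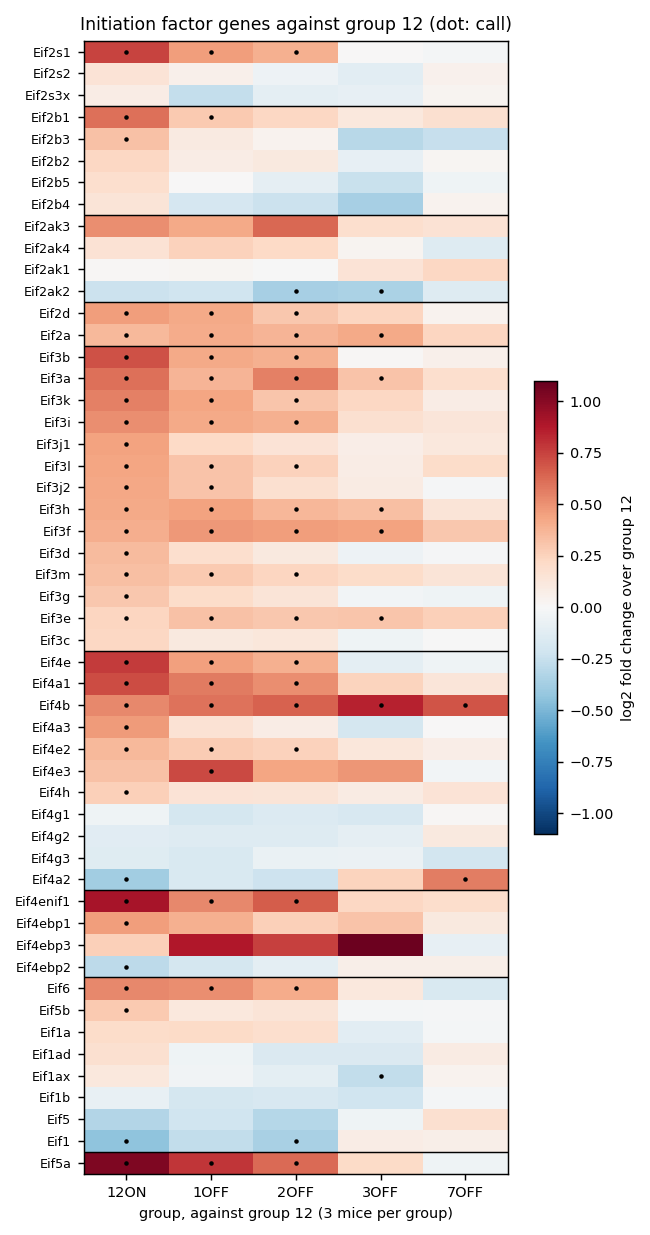
Log2 fold change over group 12 of each of the 52 members (rows, by complex) in groups 12ON, 1OFF, 2OFF, 3OFF and 7OFF (columns, 3 mice per group), with red for higher, blue for lower and a dot where edgeR made a call. Most eIF3 genes and Eif5a are darkest in 12ON and pale by 7OFF, Eif4b is called in every column, and Eif1, Eif4a2 and Eif4ebp2 are blue in 12ON under TMM scaling but positive there under total counts.

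Genes that work with the members were read from 7 lists in 12ON against group 12, where 24% of all tested genes were called higher and 22.6% lower and the median of all genes was -0.0047. Of 15 partners of initiation 5 were higher and 2 lower, with the list's median at -0.04 and 7 of 15 values positive. Bzw2, which mimics eIF5 and competes with it for eIF2, was higher at 3.54 ± 0.22, and the poly(A)-binding proteins Pabpc4 and Pabpc1 at 1.93 ± 0.13 and 0.75 ± 0.14. Pdcd4, an inhibitor that binds eIF4A, was lower at -1.27 ± 0.15, and Mcts1, which helps recycle ribosomes, at -0.51 ± 0.09, a call lost with a mitochondrial term, and at -0.01 under total counts. Of 8 genes of hypusine and polyamine synthesis, which make the modification of eIF5A and its precursor, 4 were higher and 2 lower, with a median of 0.60 (log2). Sms, Srm and Odc1, all enzymes of the pathway, were at 1.55 ± 0.14, 1.66 ± 0.21 and 1.05 ± 0.24, while Oaz1, which targets ornithine decarboxylase for degradation, was at -0.40 ± 0.09 and Azin1, which protects it, at -0.62 ± 0.17. Under total counts Oaz1 turned to 0.09, and with a mitochondrial term neither of the 2 was called. The hypusine enzymes Dhps and Dohh were at 0.37 ± 0.15 and 0.04 ± 0.09 and were not called.

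Of 14 genes of mTORC1 and MNK signalling, the kinases upstream of 4E-BP and eIF4E, 3 were higher and 2 lower, neither share above that of all genes, and the median was 0.14. Mlst8, an mTOR complex subunit, was at 0.46 ± 0.13 and Tsc2, an inhibitor of mTORC1, at -0.31 ± 0.08; with a mitochondrial term neither was called, and under total counts Tsc2 turned to 0.19. Akt1s1, Rheb and Rptor were at 0.35, 0.26 and -0.22, and each call was lost without at least 1 library: Akt1s1 without group 12 replicate 3, Rheb without group 12 replicate 3 or 12ON replicate 2, and Rptor without group 12 replicate 1, 12ON replicate 1 or 12ON replicate 2 (adjusted p of up to 0.0581, 0.0856 and 0.0787). Of 11 genes listed under elongation and termination 6 were higher and none lower, at a median of 0.41. They were led by Eef1e1 at 1.52 ± 0.13, Eef2k, the kinase that inhibits elongation factor 2, at 1.13 ± 0.14 and Eef1g at 0.77 ± 0.14. Not every gene of this list is itself an elongation or termination factor, Eef1e1 and Eef2k among them. Of 22 genes for aminoacyl-tRNA synthetases and their scaffold 12 were higher and 2 lower, at a median of 0.31. Iars, Vars and Farsa were at 1.25, 1.98 and 1.05, while Aars and Tars, for alanine and threonine, were at -0.96 and -1.12. The count of 12 was 6 without group 12 replicate 3 or without 12ON replicate 2, and 8 without group 12 replicate 1.

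Of 16 targets of the integrated stress response, the program that follows phosphorylation of eIF2, 4 were higher and 7 lower, at a median of -0.35. Phgdh and Psat1, enzymes of serine synthesis, were higher at 4.34 ± 0.53 and 3.03 ± 0.59, and the factor Atf3 at 2.35 ± 0.38. Atf4, the central factor of the program, was lower at -0.35 ± 0.10, Atf5 at -1.14 ± 0.18 and Dnajc3, which inhibits PERK, at -1.36 ± 0.28. The value of Atf4 turned to 0.15 under total counts, and the calls of Atf4 and Dnajc3 were lost with a mitochondrial term. The count of 7 lower was 4 without group 12 replicate 2. Of 8 mitochondrial translation factors 2 were higher, Tufm at 0.59 ± 0.09 and Tsfm at 0.79 ± 0.14, and none lower, at a median of -0.02.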

How the data were processed

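Each of 18 livers gave 1 poly-A library of single 50 nt reads, per the labels' protocols. The submitters' processing notes name Trim Galore, TopHat2 and the build mm10. The deposited values are raw counts per gene, summed over the exons of each Ensembl 82 gene by featureCounts 1.5.0-p1, with a minimum overlap of 10 bases, per the file headers. Counting ignored strand, counted a read for each gene it overlapped and left out reads aligned to several places. Members that overlap an antisense gene therefore hold some of its reads (1643 bases of Eif5b with Rev1, 1107 of Eif3j1 with Spg11). Eif3d shares 625 of its 1910 exonic bases with Gm17638, and their mean levels were 90.8 and 39.1 CPM. The exonic length per gene in the deposited files gave CPM per kb.

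Symbols were matched for 34599 of 34937 genes. Genes were filtered with filterByExpr at a minimum count of 10, and all 18 libraries entered 1 edgeR 4.0.16 quasi-likelihood fit (R 4.3.3) with TMM scaling. It had 12 residual degrees of freedom and a common coefficient of variation (biological) of 0.202, with Benjamini-Hochberg adjustment over 17789 genes in each of 11 comparisons. Standard errors are the log2 fold change over the root of F. The fit was tested on simulated counts, with 50 genes drawn from all tested genes for each size of change. For 12ON against group 12 it recovered 14% of 1.5-fold and 56% of 2-fold changes, with 4 false calls. For 1OFF against 12ON it recovered 36% and 44%, with 2 false calls. These shares are not those of the members, whose median SE in 12ON against group 12 was 0.10, against 0.18 over all tested genes. The simulation also changed far fewer genes than were called in that comparison, which makes its adjusted p stricter. How often a change in a member would be called was not tested. A member without a call is still not shown to be unchanged. The design text gives 3 mice per time point. No 2 replicates of the same group were duplicates: the chi-square per gene between them was 34.0 to 311. Pairs of libraries from different groups were not checked. Values per mouse were given for up to 3 members in each direction per complex with the smallest p in 12ON against group 12, plus Eif4e, Eif4a1, Eif4g1, Eif4ebp1, Eif4ebp2, Eif2s1, Eif2ak3, Eif5a, Eif5a2 and Eif6; up to 3 genes in each direction were named per pathway list, and Eif3c, Eif5, Eif4b and the values in OFF groups were added after their values were seen. Members and lists were chosen with earlier results of these data known. Alternatives were other scalings and filters, DESeq2 1.42.0, 2-group fits, a 1.5-fold test, terms for replicate, Xist and mitochondrial share, and leaving out each library.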

Additional observations from a re-analysis of the deposited data

How the results depend on the processing

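Relative log expression factors and a term for Xist moved no count of called members by over 1.5 times. Counts are members called higher, then lower. The shares of all genes called under each setting, or with 1 library left out, are not given. Whether the members moved more than other genes was therefore not tested. Total counts gave 45 and 0 in 12ON against group 12, 0 and 42 in 3OFF and 1 and 44 in 7OFF against 12ON, 2 lower in 2OFF against 12ON, and against group 12 39 higher in 1OFF, 39 and 0 in 2OFF, 17 and 0 in 3OFF and 5 higher in 7OFF, with 0 and 18 in 3OFF against 2OFF and 0 higher in 7OFF against 3OFF. The mitochondrial term left 1 lower in 12ON against group 12, 3 higher in 7OFF against 12ON, and against group 12 10 higher in 1OFF, 8 and 0 in 2OFF, 1 and 0 in 3OFF and 1 higher in 7OFF, with 0 higher in 7OFF against 3OFF. Fits of 2 groups gave 1 lower in 1OFF against 12ON, and against group 12 8 and 0 in 2OFF, 2 and 0 in 3OFF and 0 higher in 7OFF, with 0 and 0 in 3OFF against 2OFF and 0 higher in 7OFF against 3OFF. The 1.5-fold test gave 2 and 0 in 12ON against group 12, 0 and 1 in 3OFF and 1 and 1 in 7OFF against 12ON, and 0 in the other comparisons. DESeq2 gave 2 lower in 1OFF and 6 lower in 2OFF against 12ON, 2 and 8 in 3OFF against 2OFF, and 2 and 1 in 7OFF against 3OFF. Upper quartile factors gave 5 lower in 3OFF against 2OFF. Without a filter 1 was lower in 2OFF and 0 in 3OFF against group 12, and 0 higher in 7OFF against 3OFF. A minimum count of 50 gave 2 higher in 3OFF against 2OFF and 2 in 7OFF against 3OFF. The mitochondrial share did not overlap between group 12 and any other group, or between 7OFF and 12ON. In those comparisons its term cannot be cleanly separated from the group. The cause of these moves was not tested.

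Replicate numbers did not pair the mice: the correlation of deviations per pair was 0.249, -0.0289 and 0.00839 in 12ON against group 12, and in no comparison were all 3 above 0.1. With the replicate block 32 members were higher in 12ON against group 12, 4 lower in 2OFF against 12ON, 2 higher and 6 lower in 3OFF against 2OFF, and 2 higher in 7OFF against 3OFF.

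Leaving out 1 library gave 23 to 31 higher and 2 to 4 lower in 12ON against group 12. Against 12ON it gave 0 to 0 and 0 to 0 in 1OFF, 0 to 0 and 0 to 8 in 2OFF, 2 to 3 and 17 to 24 in 3OFF, and 4 to 5 and 19 to 24 in 7OFF. Against group 12 it gave 18 to 25 and 0 to 0 in 1OFF, 12 to 22 and 0 to 1 in 2OFF, 3 to 7 and 0 to 3 in 3OFF, and 1 to 2 and 0 to 0 in 7OFF. It gave 0 to 1 and 0 to 4 in 3OFF against 2OFF, and 0 to 2 and 0 to 1 in 7OFF against 3OFF. The log2 difference of Eif4ebp1 over Eif4e ran from -0.48 to -0.14.

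Under total counts the direction turned for the members below, each called under at least 1 of both scalings. Members not called and close to 0 also changed sign when 1 library was left out, such as Eif1 in 7OFF against group 12, which ran from -0.11 to 0.15. In 12ON against group 12 Eif1 went to 0.042, Eif1b to 0.41, Eif4a2 to 0.11, Eif4ebp2 to 0.21, Eif4g1 to 0.45, Eif4g2 to 0.37 and Eif4g3 to 0.36. In 3OFF against 12ON Eif2a was at -0.26, Eif3e at -0.26, Eif3f at -0.28, Eif4g2 at -0.29 and Eif4g3 at -0.26. In 7OFF against 12ON Eif1b was at -0.36, Eif2ak1 at -0.21, Eif2ak2 at -0.33, Eif3e at -0.40, Eif4ebp2 at -0.075 and Eif4g1 at -0.36. Against group 12 Eif1ax was at 0.31 in 1OFF, and in 2OFF Eif2ak1 was at 0.36, Eif2ak2 at 3.9e-06, Eif2b5 at 0.27, Eif4ebp2 at 0.25 and Eif4g3 at 0.28. The lowest member, Eif4e3, had a mean of 10.4 CPM, and 3 mice per group limit the precision of all members.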
